A study of Schizosaccharomyces pombe
Saccharomyces cerevisiae with 8 samples.

Results

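The genes described here encode the aminoacyl-tRNA synthetases of the budding yeast Saccharomyces cerevisiae and their annotated relatives. They were taken as every protein-coding gene outside the mitochondrial genome whose deposited biological process annotation holds the term tRNA aminoacylation, and 38 of the 6808 genes listed met this rule. All 38 appeared in both deposited tables. Of these, 36 are enzymes on a textbook list of the family. The other 2 are YGL105W, which the deposited description gives as a protein that binds tRNA together with the methionyl and glutamyl enzymes, and YNL040W, which resembles bacterial alanyl-tRNA synthetases and is annotated as hydrolysing tRNA charged with the wrong amino acid. A symbol was missing from the tables for 12 members, which are therefore called by their systematic names.

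The series measured RNA after degradation of Sua7, which is TFIIB in budding yeast, a general transcription factor that helps RNA polymerase start. Cells received 500 µM of the auxin 3-IAA, an indole acetic acid, or its carrier DMSO for 30 min and then 5 mM 4-thiouracil for 6 min, so that RNA made in those last minutes could be purified. There were 4 groups of 2 libraries each: newly synthesized RNA (nsRNA) of auxin cells, nsRNA of DMSO cells, total RNA of auxin cells and total RNA of DMSO cells. All 8 libraries came from 1 haploid strain, GZY364, of mating type MATalpha. This strain carries SUA7-3V5-IAA7-kanMX6, the degron allele at the SUA7 gene itself, and his3::pGPD1-OsTIR1-HIS3, a rice auxin receptor whose construct is named for the GPD1 promoter. Its remaining alleles are ura3<delta>0, trp1<delta>63, met15<delta>0, lys2<delta>0, leu2<delta>0, his3<delta>200 and ade2<delta>::hisG. The DMSO cells thus hold the tag and the receptor too. No strain without the degron was given auxin, so what auxin does by itself and what the loss of Sua7 does cannot be told apart here, and the amount of Sua7 protein was not measured. The series text calls the replicates biological but does not name separate cultures, and the p-values then cover only the spread among these libraries, part of which may be technical.

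Aminoacyl-tRNA synthetases join each amino acid to the tRNAs that read its codons, at the cost of ATP. The cytosolic enzymes supply the ribosomes that translate the mRNAs of nuclear genes. Mitochondria translate a small set of mRNAs of their own with a separate collection of enzymes, which are encoded in the nucleus and imported, and for some amino acids a single gene makes both forms. When charging fails, uncharged tRNA activates the kinase Gcn2, which through the initiation factor eIF2 raises translation of the transcription factor Gcn4.

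The nsRNA libraries held 1291241 and 1753672 counts in auxin cells, against 9496247 and 11779971 in DMSO cells, and the total RNA libraries held 7010247 and 7181104 in auxin cells, against 8275038 and 10543351 in DMSO cells. The levels given below are the authors' normalized counts, called scaled counts here. The factor of each library was taken as its raw counts over its normalized counts, and is called the deposited factor below. SUA7 itself had 189 and 226 scaled counts of nsRNA in auxin cells, against 2466 and 2687 in DMSO cells. Its RNA is no check of the labels, since the degron removes protein. Of 4 genes that mark alpha cells all 4 were listed, with 1413 to 24383 counts in sum per library. Of 7 genes that mark a cells, 7 were listed in nsRNA and 6 in total RNA, and they summed to 114 to 810 counts. In nsRNA of DMSO cells 1 of them, YKL209C, held 496 of 594 and 682 of 810 counts. Of 7 genes given as deleted in the strain, 2 were listed in the tables, and they summed to at most 7 counts in any library. Of the members, ILS1, YER087W, MES1, GLN4 and ALA1 each overlap another listed gene, and since the sources used here do not give whether counting used strand, their counts carry that uncertainty.

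In newly synthesized RNA, every aminoacyl-tRNA synthetase gene fell after auxin. All 38 members passed edgeR's quasi-likelihood test at an adjusted p under 0.05 and all 38 were lower, where 97.6% of all tested genes were called lower and 1.31% higher. The median member changed by -3.82 on the log2 scale and the median of all genes tested by -4.08, which left 7.08% and 5.93% of the DMSO level. Both auxin libraries lay below both DMSO libraries in all 38 members, as they did in 97.8% of all tested genes. The members ranged between -5.14 at the bottom and -2.97 at the top. Of all tested genes, 3.90% had a lower log2 change than the bottom member and 92.1% a lower one than the top member.

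The smallest change was that of DPS1, which encodes cytosolic aspartyl-tRNA synthetase. DPS1 had 185 and 149 scaled counts in auxin cells, against 1193 and 1433 in DMSO cells. The next smallest was that of TYS1, the cytosolic tyrosyl enzyme, with 321 and 452 scaled counts in auxin cells, against 2969 and 3268 in DMSO cells. The groups did not overlap for either gene, and the log2 changes were -2.97 ± 0.34 and -3.01 ± 0.36 (± approximate SE, adjusted p = 7.7e-18 and 5.0e-17, edgeR). At the other end stood YHR011W, described as the probable mitochondrial seryl enzyme. YHR011W had 10.4 and 8.98 scaled counts in auxin cells, against 330.4 and 361 in DMSO cells, a log2 change of -5.14 ± 0.40 (adjusted p = 1.0e-36, edgeR). MSF1, the mitochondrial phenylalanyl enzyme, had 39.5 and 37.3 scaled counts in auxin cells, against 946 and 1058 in DMSO cells, and its log2 change was -4.70 ± 0.37. Both mitochondrial genes were low in both auxin libraries and kept little of their DMSO level by the fit, 2.84% for YHR011W and 3.84% for MSF1.

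Members were split by compartment through the deposited cellular component annotation. The 13 that hold the term mitochondrial matrix are called mitochondrial below, and the 25 without it are called cytosolic, a class that includes enzymes which also serve mitochondria, and YER087W, which the textbook list gives as mitochondrial. This term was chosen after the data were seen, because the first rule, any mitochondrial term without a cytosolic one, left NAM2 alone as mitochondrial. In nsRNA the 25 cytosolic members had a median log2 change of -3.64 and the 13 mitochondrial members one of -4.28, on either side of the -4.08 of all genes. The cytosolic members lay between -4.11 (KRS1, lysyl) and -2.97 (DPS1), and the mitochondrial ones between -5.14 (YHR011W) and -3.35 (MSD1, aspartyl), so the classes overlapped. In bulk RNA fewer cells and less RNA per cell cannot be told apart.

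The direction in nsRNA rests on the deposited factors. TMM scaling, which sets the typical gene at no change, moved the median of all genes by 4.04 on the log2 scale. Relative to the typical gene, 17 members were then higher (29.6% of all tested genes were) and 6 were lower (27.5% of all tested genes were). The 17 were 16 cytosolic genes and MSD1, and the 6 were all mitochondrial. Calls among the higher members varied with the library left out. DED81, YHR020W, FRS1 and WRS1 were lost without replicate 2 of nsRNA in DMSO cells. YDR341C, YER087W and YGR094W were gained without replicate 1 of nsRNA in auxin cells. Without replicate 2 of nsRNA in auxin cells the 6 became 3, since YHR011W, MSF1 and YPL097W no longer passed. DPS1 was highest at 1.07 ± 0.14 and YHR011W lowest at -1.13 ± 0.27 (adjusted p = 4.5e-06 and 0.00165, edgeR with TMM).

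**Figure D1:**
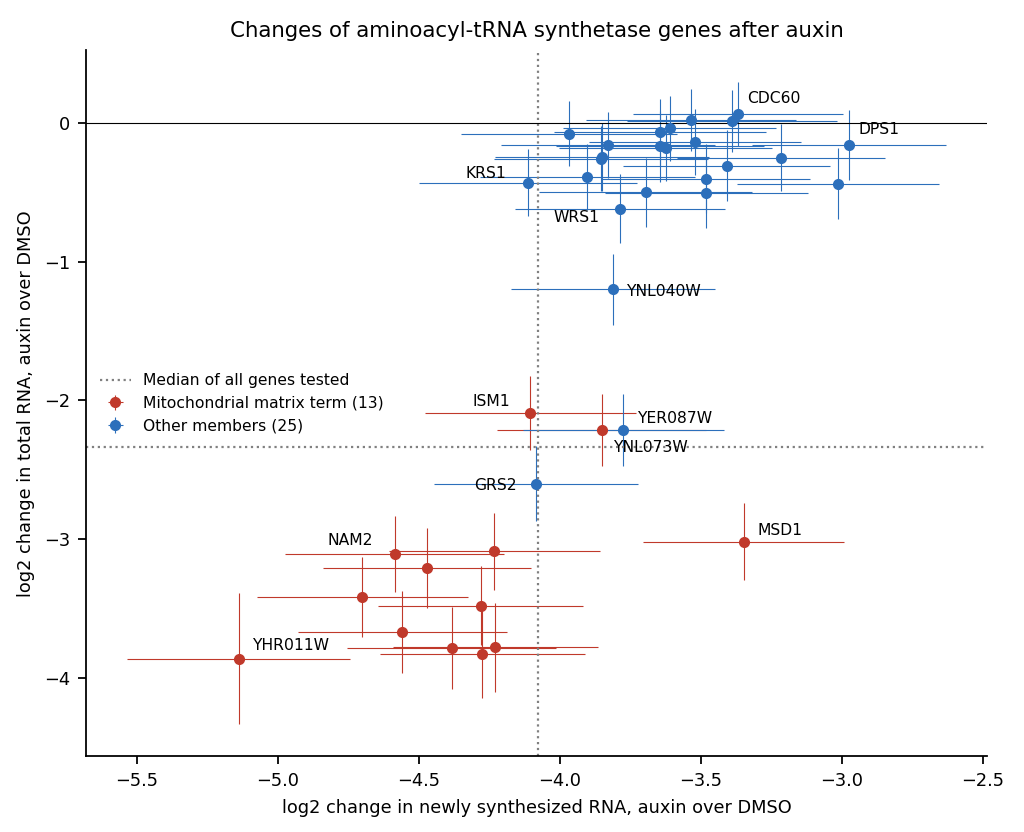
Log2 change after auxin of each aminoacyl-tRNA synthetase gene in newly synthesized RNA (horizontal axis) and in total RNA (vertical axis) on the deposited scaling; points are the 38 genes, bars are the log2 change divided by the square root of the F statistic (2 libraries a group), and dotted lines are the medians of all genes tested. All points lie at -2.97 or below in nsRNA; in total RNA the cytosolic genes other than GRS2, YER087W and YNL040W lie at -0.62 or above and all 13 mitochondrial genes at -2.09 or below.

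In total RNA the class medians lay further apart than in nsRNA, but the classes still overlapped. Cytosolic GRS2 at -2.60 lay below mitochondrial YNL073W at -2.21 and ISM1 at -2.09, and cytosolic YER087W at -2.21 lay below ISM1. Of the 25 cytosolic members 6 were called lower, and the class had a median log2 change of -0.25. All 13 mitochondrial enzymes were called lower, with a median of -3.42. Together 19 of 38 members were called lower and 0 higher, where 90.3% of all tested genes were lower and 1.44% were higher, and the median of all genes was -2.34. Among the 5 members that textbooks give as serving both compartments (GRS1, YGR094W, YNL247W, ALA1 and HTS1), 0 of 5 were called lower and the median was -0.16. By the textbook list itself, which moves YER087W to the mitochondrial side and leaves out both relatives, 14 of 14 mitochondrial enzymes were lower, with a median of -3.31, and 4 of 17 cytosolic ones, with a median of -0.25. The cytosolic count depends on the fit. With replicate number as a block, 19 cytosolic members were lower and 32 members in all, where 5176 of 5479 tested genes were. The authors' deposited values called 22 members lower. In the fit without the block, the 19 members that did not pass were all cytosolic. These 19 are given first by the chemistry of their amino acids.

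The enzymes for branched-chain and sulfur amino acids kept their total RNA within the spread of the replicates. ILS1, the isoleucyl enzyme and the member with the highest mean level, had 25757 and 32249 scaled counts in auxin cells, against 25581 and 31628 in DMSO cells. In CDC60, the leucyl enzyme, the levels were 13112 and 16278 scaled counts in auxin cells, against 12885 and 15272 in DMSO cells. The 2 groups interleaved in both genes, and the log2 changes were 0.02 ± 0.22 and 0.06 ± 0.23. YGR094W, the valyl enzyme of cytosol and mitochondria, had 8430.4 and 9533 scaled counts in auxin cells, against 9516 and 10569.8 in DMSO cells. MES1, the methionyl enzyme, had 7252 and 9159 scaled counts in auxin cells, against 8166 and 9874 in DMSO cells. For YNL247W, the cysteinyl enzyme, the counts were 1448 and 1707 scaled counts in auxin cells, against 1649 and 1896 in DMSO cells. The auxin and DMSO values overlapped in these 3 genes as well, with log2 changes of -0.16 ± 0.24, -0.14 ± 0.24 and -0.17 ± 0.25. With approximate SEs of 0.22 to 0.25, these values do not show that the levels were equal.

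The enzymes for small and hydroxyl amino acids and for proline did not pass the test either. THS1, the threonyl enzyme, had 19865 and 25127 scaled counts in auxin cells, against 19866 and 24715 in DMSO cells. SES1, the seryl enzyme, had 9532 and 11860.4 scaled counts in auxin cells, against 11308 and 14307 in DMSO cells. GRS1, the glycyl enzyme of cytosol and mitochondria, had 12117 and 15539 scaled counts in auxin cells, against 12626 and 15801 in DMSO cells. Each of these genes held a DMSO value inside the range of its auxin values or the reverse. ALA1, the alanyl enzyme of both compartments, had 11870.1 and 14756 scaled counts in auxin cells, against 12874 and 15215 in DMSO cells. YHR020W, the prolyl enzyme, had 8217 and 10342 scaled counts in auxin cells, against 9527 and 11538 in DMSO cells. Their log2 changes ran between -0.26 for SES1 and 0.01 for THS1, and none passed the test.

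None of the enzymes for charged and amide amino acids passed the test, although all but DED81 had auxin values below their DMSO values. KRS1, the lysyl enzyme, had 5128 and 6255 scaled counts in auxin cells, against 7175 and 8188 in DMSO cells. YDR341C, the arginyl enzyme, had 3934 and 4595 scaled counts in auxin cells, against 4742 and 5361 in DMSO cells. HTS1, the histidyl enzyme of both compartments, had 1573 and 1835 scaled counts in auxin cells, against 1918 and 2299 in DMSO cells. All auxin values of these 3 genes lay below all DMSO values, and the log2 changes were -0.43 ± 0.24, -0.24 ± 0.25 and -0.31 ± 0.25 (adjusted p = 0.0789, 0.331 and 0.236, edgeR). GUS1, the glutamyl enzyme, had 5295 and 6386 scaled counts in auxin cells, against 6462 and 7430.1 in DMSO cells. GLN4, the glutaminyl enzyme, had 6474 and 8491 scaled counts in auxin cells, against 8876 and 10729 in DMSO cells. DPS1, the aspartyl enzyme, had 1015 and 955 scaled counts in auxin cells, against 1046 and 1153 in DMSO cells. The auxin values lay below the DMSO values in all 3, by a log2 change of -0.25 ± 0.24 in GUS1, -0.39 ± 0.24 in GLN4 and -0.16 ± 0.25 in DPS1. DED81, the asparaginyl enzyme, had 8389 and 9809.8 scaled counts in auxin cells, against 8684 and 10358 in DMSO cells, which overlapped, with a log2 change of -0.07 ± 0.24.

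The remaining pair that did not pass were TYS1 and YGL105W. TYS1, the tyrosyl enzyme, had 729.9 and 899 scaled counts in auxin cells, against 1030.1 and 1175 in DMSO cells, a log2 change of -0.44 ± 0.25. YGL105W, the tRNA-binding partner of the methionyl and glutamyl enzymes, had 2820.0 and 3283 scaled counts in auxin cells, against 3774 and 4301 in DMSO cells, a log2 change of -0.40 ± 0.25. Neither gene's groups overlapped, and the adjusted p-values were 0.0924 and 0.111 (edgeR).

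Of the 6 cytosolic members that fell in total RNA, 3 did so by a small amount. WRS1, the tryptophanyl enzyme, had 2285 and 2947 scaled counts in auxin cells, against 3659 and 4379 in DMSO cells. FRS1 and FRS2 encode the 2 subunits of the cytosolic phenylalanyl enzyme. FRS1 had 2954 and 3577 scaled counts in auxin cells, against 4270.1 and 4974 in DMSO cells, and FRS2 had 579 and 587 scaled counts in auxin cells, against 793 and 861 in DMSO cells. The groups did not overlap in any of the 3, and the log2 changes were -0.62 ± 0.25, -0.50 ± 0.25 and -0.50 ± 0.25 (adjusted p = 0.0146, 0.0468 and 0.0495, edgeR). Each of these 3 calls was lost when any 1 of the 4 total RNA libraries was left out, which reduced the cytosolic members called lower to 3. The ratio of the subunit genes overlapped between the groups: FRS1 over FRS2 per kb was 4.31 and 5.15 in auxin cells, against 4.55 and 4.88 in DMSO cells.

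The other 3 fell further. GRS2 encodes a second glycyl enzyme, a paralog of GRS1, and the sources used here do not say how reads common to both were assigned. GRS2 had 51.2 and 63.2 scaled counts in auxin cells, against 327 and 367 in DMSO cells, a log2 change of -2.60 ± 0.27 (adjusted p = 2.6e-21, edgeR). YER087W, described as similar to tRNA synthetases and found in purified mitochondria, is annotated with prolyl-tRNA charging and lacks the matrix term. It had 85.1 and 97.7 scaled counts in auxin cells, against 389 and 459 in DMSO cells, a log2 change of -2.21 ± 0.26 (adjusted p = 7.0e-17, edgeR). YNL040W, the hydrolase-like member, had 406 and 493 scaled counts in auxin cells, against 947 and 1118 in DMSO cells, a log2 change of -1.20 ± 0.26 (adjusted p = 3.7e-06, edgeR). In each, both auxin libraries lay far below both DMSO libraries. Within single libraries, which needs no scaling factor, GRS1 over GRS2 per kb was 219 and 228 in total RNA of auxin cells, against 35.8 and 39.9 in DMSO cells. In nsRNA the same ratio was 9.12 and 10.6 in auxin cells, against 7.57 and 6.76 in DMSO cells. Prolyl genes showed the same kind of split, with YHR020W over YER087W at 80.9 and 88.7 in total RNA of auxin cells, against 20.5 and 21.1 in DMSO cells. For the alanyl pair, ALA1 over YNL040W was 13.9 and 14.3 in auxin cells, against 6.48 and 6.48 in DMSO cells.

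**Figure D2:**
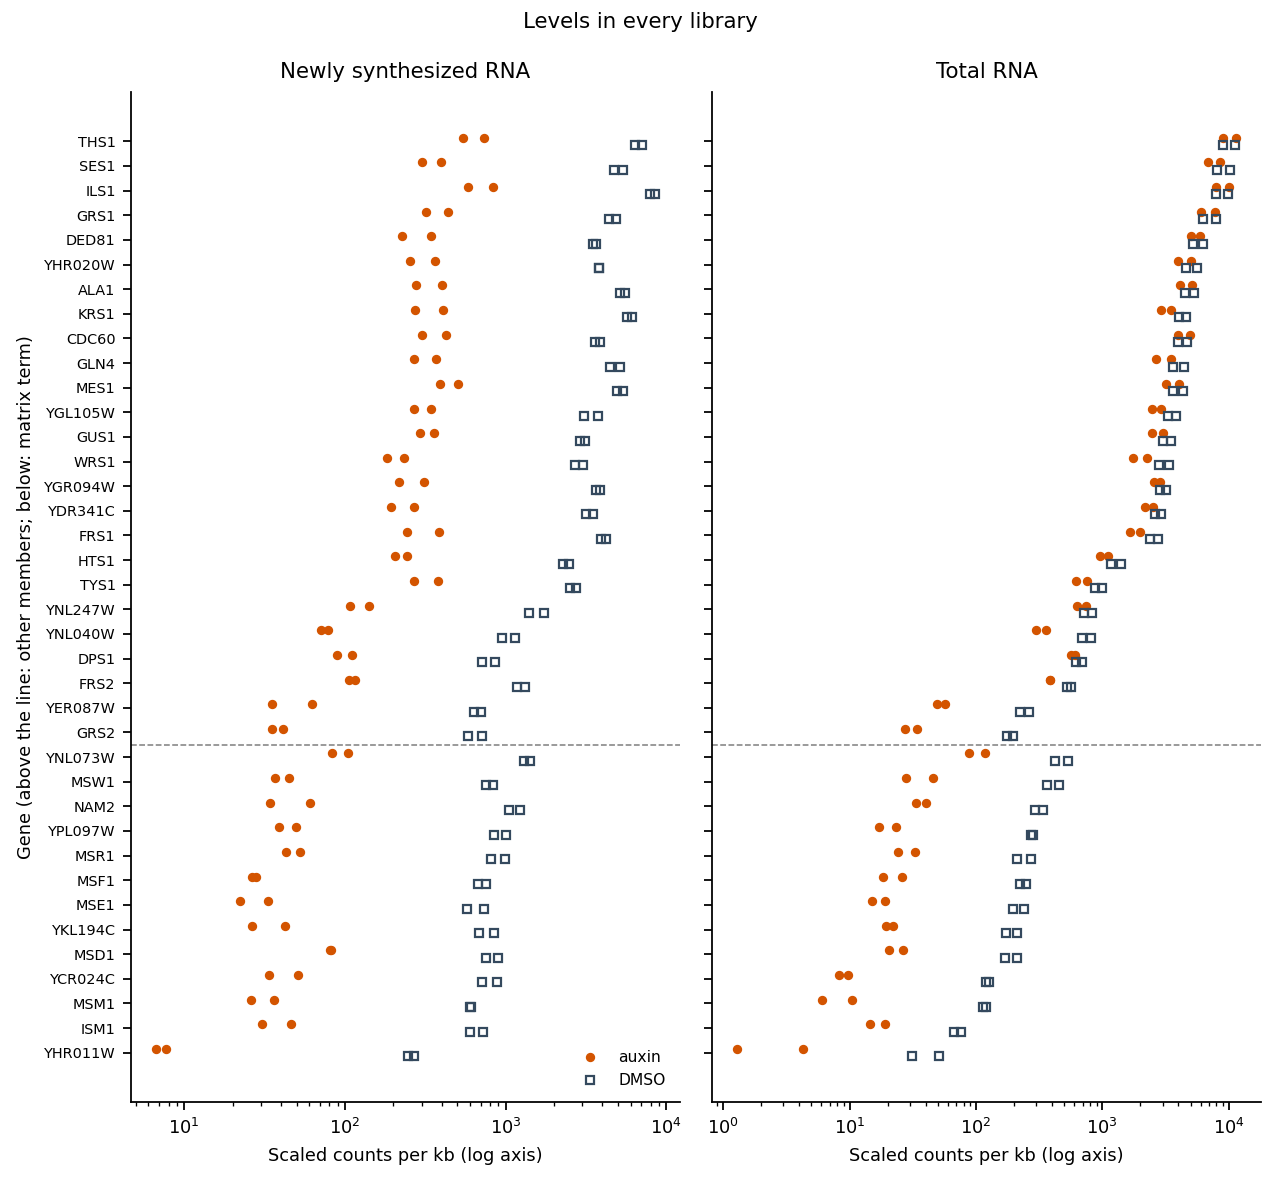
Scaled counts per kb of gene in every library, on a log axis, in newly synthesized RNA (left) and total RNA (right); filled circles are the auxin libraries and open squares the DMSO libraries (2 each), and the dashed line separates the cytosolic genes above from the mitochondrial genes below. In nsRNA the auxin libraries lie below the DMSO libraries at every gene; in total RNA the symbols lie together for most cytosolic genes and apart for all mitochondrial ones.

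The mitochondrial enzymes lost most of their total RNA. NAM2, the leucyl enzyme, had the highest mean of the class over all 8 libraries in scaled counts, although YNL073W was higher in total RNA of auxin cells. NAM2 had 89.4 and 108 scaled counts in auxin cells, against 783 and 919 in DMSO cells. Both auxin values lay far below both DMSO values, and its log2 change was -3.11 ± 0.27 (adjusted p = 1.1e-28, edgeR), which left 11.6% of the DMSO level. MSM1, the methionyl enzyme, had 10.4 and 18.2 scaled counts in auxin cells, against 196 and 209 in DMSO cells. YPL097W, the tyrosyl enzyme, had 25.2 and 34.5 scaled counts in auxin cells, against 417 and 404 in DMSO cells. These were the largest losses among members with a mean of at least 100 scaled counts, with log2 changes of -3.83 ± 0.32 and -3.78 ± 0.30 (adjusted p = 3.6e-32 and 1.5e-35, edgeR).

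YCR024C, the asparaginyl enzyme, had 12.2 and 14.4 scaled counts in auxin cells, against 179 and 187 in DMSO cells. MSE1, the glutamyl enzyme, had 24.3 and 30.6 scaled counts in auxin cells, against 317 and 384 in DMSO cells. MSW1, the tryptophanyl enzyme, had 32.1 and 51.7 scaled counts in auxin cells, against 415 and 518 in DMSO cells. All 3 kept 7.27% to 8.95% of the DMSO level, with log2 changes of -3.78, -3.67 and -3.48. MSD1, the aspartyl enzyme, had 40.8 and 52.7 scaled counts in auxin cells, against 338 and 419 in DMSO cells, a log2 change of -3.02. YHR011W had the lowest level of the family, 1.74 and 5.75 scaled counts in auxin cells, against 68.1 and 42.1 in DMSO cells. These came from 2 and 6 raw counts in auxin cells, against 60 and 40 in DMSO cells, so that its log2 change of -3.86 ± 0.47 is the least certain of the class.

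The next 3 mitochondrial genes were MSF1 (phenylalanyl, -3.42), YKL194C (threonyl, -3.21) and MSR1 (arginyl, -3.09), all called lower. The smallest losses were those of YNL073W, the lysyl enzyme, with 154 and 206 scaled counts in auxin cells, against 734 and 933 in DMSO cells, and ISM1, the isoleucyl enzyme, with 43.4 and 57.5 scaled counts in auxin cells, against 201 and 228 in DMSO cells. Their log2 changes of -2.21 ± 0.26 and -2.09 ± 0.27 lay near the median of all genes: 54.6% of all tested genes had a lower log2 change than YNL073W and 58.8% a lower one than ISM1. Both auxin libraries lay below both DMSO libraries in all 13, as they did in 93.9% of all tested genes.

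Summed over the class, the mitochondrial genes took 0.333% and 0.359% of all counts of the 38 members in total RNA of auxin cells, against 2.52% and 2.47% in DMSO cells. In nsRNA they took 6.42% and 6.15% in auxin cells, against 8.70% and 9.26% in DMSO cells. The family as a whole took 2.63% and 2.87% of all counted total RNA in auxin cells, against 1.95% and 1.98% in DMSO cells. These shares need no factor between libraries, and in each the auxin and DMSO libraries were separate.

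Members with like counts in total RNA of DMSO cells are set side by side here. Among members with 827 to 1102 scaled counts on average in DMSO cells, FRS2, DPS1 and TYS1 had log2 changes of -0.50, -0.16 and -0.44. In the same range YNL073W and NAM2 had -2.21 and -3.11, and YNL040W had -1.20. In a lower range, 347 to 468 scaled counts in DMSO cells, all 7 members fell: GRS2 and YER087W had log2 changes of -2.60 and -2.21, and the 5 mitochondrial genes MSE1, MSD1, YPL097W, MSW1 and MSR1 had -3.78 to -3.02.

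Levels of different genes can be compared per kb of transcript. THS1 was highest in total RNA, with 10202 ± 1687 scaled counts per kb in auxin cells, against 10109 ± 1555 in DMSO cells (SD, n = 2 each). In DMSO cells SES1 at 9221 ± 1527, ILS1 at 8886 ± 1328 and GRS1 at 7093 ± 1120.0 followed. The means of THS1, SES1 and ILS1 lay within 1 SD of each other, but these SDs hold a shift between the libraries that the 3 genes shared. The order was the same in both DMSO libraries, with THS1 at 9009.7 and 11209 scaled counts per kb, SES1 at 8141 and 10300.2, and ILS1 at 7947 and 9825. YHR011W was lowest, with 2.79 ± 2.11 in auxin cells, against 41.1 ± 13.7 in DMSO cells. The median cytosolic member had 2709 scaled counts per kb in auxin cells, against 3266 in DMSO cells, and the median mitochondrial member had 20.7 in auxin cells, against 217 in DMSO cells.

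On TMM scaling, which moved the median of all genes in total RNA by 2.22, the split took the form of opposite directions. Relative to the typical gene, 23 members were higher (34.9% of all tested genes were) and 12 were lower (38.1% of all tested genes were). The 23 were all cytosolic, led by CDC60 at 2.28 ± 0.06 and ILS1 at 2.24 ± 0.06. The 12 were 11 mitochondrial genes and GRS2, with YHR011W at -1.68 ± 0.59 and GRS2 at -0.38 ± 0.15 (adjusted p = 0.0169 and 0.0288, edgeR with TMM). The relative call of GRS2 was lost when any 1 total RNA library was left out, and that of YHR011W without replicate 1 of either group, which left 10 or 11 members lower. YNL073W, ISM1 and YER087W did not pass, with relative log2 changes of 0.01, 0.13 and 0.01.

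By the matrix term, 13 amino acids have both a cytosolic and a mitochondrial enzyme among the members. This gives 14 pairs because the cytosolic phenylalanyl enzyme has 2 subunits. The ratio of the 2 levels per kb within a library does not depend on any factor between libraries. In total RNA this ratio was higher in auxin cells than in DMSO cells for 14 of 14 pairs, by 3.44-fold to 14.9-fold with a median of 8.35. For leucine, CDC60 over NAM2 in total RNA was 120.3 and 123 in auxin cells, against 13.5 and 13.6 in DMSO cells. The means were 122 ± 2.16 and 13.6 ± 0.0878 (SD, n = 2 each). An exact two-sided permutation test gave p = 0.333, the smallest that 2 libraries against 2 can give.

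The largest and the smallest shift in total RNA belonged to serine and lysine. For serine, SES1 over YHR011W was 5301 and 1993 in auxin cells, against 160.4 and 328 in DMSO cells, where the few YHR011W counts make the auxin ratios uncertain. Among pairs with more counts, methionine and asparagine moved most: MES1 over MSM1 was 533 and 386 in auxin cells, against 31.9 and 36.1 in DMSO cells. DED81 over YCR024C was 613 and 607 in auxin cells, against 43.0 and 49.1 in DMSO cells. For lysine, KRS1 over YNL073W was 32.5 and 29.6 in auxin cells, against 9.53 and 8.55 in DMSO cells, and for isoleucine, ILS1 over ISM1 was 555 and 525 in auxin cells, against 119 and 129.5 in DMSO cells. These were the 2 smallest shifts among the 14 pairs, 3.44-fold and 4.34-fold. The proline pair given above, YHR020W over YER087W, is not ranked here, since YER087W lacks the matrix term. In total RNA it was 80.9 and 88.7 in auxin cells, against 20.5 and 21.1 in DMSO cells.

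The other pairs moved by amounts in between. The tyrosine pair, TYS1 over YPL097W, was 36.2 and 32.6 in auxin cells, against 3.08 and 3.63 in DMSO cells. The glutamate pair, GUS1 over MSE1, was 165 and 158 in auxin cells, against 15.5 and 14.7 in DMSO cells, and the threonine pair, THS1 over YKL194C, was 465 and 516 in auxin cells, against 52.3 and 53.1 in DMSO cells. In these 3 pairs the shift was 9.32-fold to 10.7-fold. Arginine, aspartate, tryptophan and both phenylalanine pairs moved by 7.19-fold to 7.72-fold.

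In nsRNA the same ratios shifted much less, by 0.826-fold to 2.57-fold with a median of 1.86, and 13 of 14 were higher in auxin cells. The exception was lysine, where KRS1 over YNL073W was 3.26 and 3.91 in auxin cells, against 4.38 and 4.30 in DMSO cells. The largest was tyrosine, where TYS1 over YPL097W was 6.96 and 7.63 in auxin cells, against 2.96 and 2.72 in DMSO cells. For leucine, CDC60 over NAM2 was 8.91 and 6.96 in auxin cells, against 3.44 and 3.16 in DMSO cells.

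**Figure D3:**
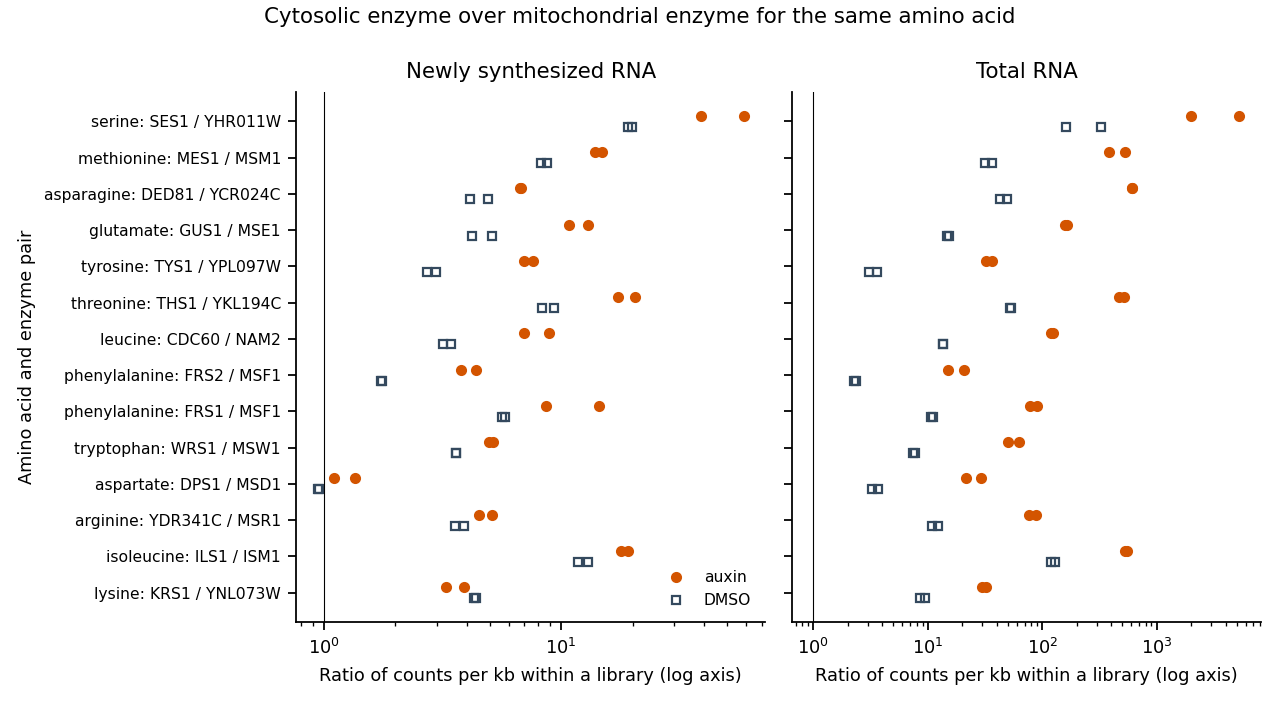
Level per kb of the cytosolic enzyme divided by that of the mitochondrial enzyme for the same amino acid, within each library, on log axes, for newly synthesized RNA (left) and total RNA (right); filled circles are auxin libraries and open squares DMSO libraries (2 each). In total RNA the auxin ratios lie to the right of the DMSO ratios in all 14 pairs, and in nsRNA in 13 of 14, the lysine pair being the exception.

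The change in nsRNA was then set against the change in total RNA by the interaction term of 1 fit over all 8 libraries. The fit took these libraries as independent, although the labels number nsRNA and total RNA of a treatment alike. A negative difference means that a gene fell further in nsRNA than in total RNA. The difference was called negative for 31 of 38 members (77.7% of all tested genes) and positive for 0 (0.0338% of all tested genes). Both counts lie near the shares of all genes. All 25 cytosolic members were among the 31, with a median difference of -3.40, against -1.65 for all genes. Of the mitochondrial members 6 of 13 were called, with a median of -1.15: ISM1, YNL073W, NAM2, MSF1, YKL194C and MSR1. This last count varied between 4 and 8 when 1 library was left out. It was 4 without replicate 2 of total RNA in auxin cells, where MSR1 and MSF1 were lost, and 8 without replicate 2 of nsRNA or replicate 1 of total RNA in auxin cells.

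ALA1 and KRS1 had the most negative differences. ALA1 had 802 and 1152 scaled counts in auxin cells, against 14748 and 15821 in DMSO cells in nsRNA, next to the nearly level total RNA values above, and its difference was -3.89 ± 0.37 (adjusted p = 2.0e-24, edgeR). KRS1 had 485 and 723 scaled counts in auxin cells, against 10048 and 10873 in DMSO cells in nsRNA, and its difference was -3.68 ± 0.37 (adjusted p = 1.7e-21, edgeR). In both genes nsRNA dropped in each auxin library while total RNA did not pass the test. ILS1 had 1868 and 2667 scaled counts in auxin cells, against 25288 and 27252 in DMSO cells in nsRNA and a difference of -3.55, and YGR094W had 719 and 1023 scaled counts in auxin cells, against 12035 and 12728 in DMSO cells and a difference of -3.67.

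The 7 members not called were all mitochondrial: MSD1, MSM1, YCR024C, YPL097W, MSW1, MSE1 and YHR011W. MSD1 had 162 and 159.6 scaled counts in auxin cells, against 1496 and 1782 in DMSO cells in nsRNA, and its difference was -0.33 ± 0.40 (adjusted p = 0.444, edgeR). MSM1 had 45.1 and 62.9 scaled counts in auxin cells, against 1034 and 1059.6 in DMSO cells in nsRNA, and its difference was -0.45 ± 0.49 (adjusted p = 0.388, edgeR). For both genes the nsRNA and total RNA of auxin cells were reduced to a similar share of the DMSO level, 9.83% and 12.3% in MSD1 and 5.17% and 7.04% in MSM1. The other 5 had differences between -1.29 and -0.45. In nsRNA YCR024C had 49.9 and 75.3 scaled counts in auxin cells, against 1048 and 1304 in DMSO cells, and YPL097W had 57.6 and 73.9 scaled counts in auxin cells, against 1253 and 1497 in DMSO cells. MSW1 had 41.6 and 51.1 scaled counts in auxin cells, against 858 and 949.9 in DMSO cells in nsRNA, and MSE1 had 36.1 and 53.2 scaled counts in auxin cells, against 921 and 1189 in DMSO cells.

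These differences depend on both sets of deposited factors. With TMM within each kind of RNA, which moved the median of all genes by 1.87, the cytosolic median stayed negative at -1.55 while the mitochondrial median became 0.71. The mitochondrial members called were then 8 positive and 0 negative. The cytosolic median lay below the mitochondrial median on both scalings. This is no separate check, since a change of scaling moves all genes by nearly the same amount.

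In DMSO cells alone, nsRNA was compared with total RNA to see how the share of new RNA varied over the family. The 2 tables were scaled separately by the authors, so only differences relative to the typical gene, by TMM, can be read. Relative to the typical gene, 26 of 38 members had less new RNA (39.2% of all tested genes did) and 8 had more (39.8% of all tested genes did). Of the 25 cytosolic members 24 were lower and 0 higher, with a median of -1.38 on the log2 scale. Of the 13 mitochondrial members 2 were lower and 8 higher, with a median of 0.26, where the median of all genes was 0.03.

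SES1 had the lowest share of new RNA. It had 6547 and 7416 scaled counts in nsRNA of DMSO cells, against 11308 and 14307 in total RNA, a log2 ratio relative to the typical gene of -2.51 ± 0.07 (adjusted p = 5.3e-119, edgeR with TMM). DED81 followed at -2.31 ± 0.07, with 5809 and 6072 in nsRNA, against 8684 and 10358 in total RNA. GRS1 (-2.25), THS1 (-2.22) and YHR020W (-2.05) came next. ISM1 had the highest share, with 1815 and 2167 in nsRNA, against 201 and 228 in total RNA and a relative log2 ratio of 1.57 ± 0.08 (adjusted p = 1.9e-53, edgeR with TMM). YCR024C had 1048 and 1304 in nsRNA, against 179 and 187 in total RNA and a relative log2 ratio of 1.04 ± 0.10. MSW1 was the mitochondrial gene with the least new RNA at -0.68 ± 0.09. In the cytosolic class GRS2 did not pass at 0.16 ± 0.09, and TYS1 (-0.14) and YER087W (-0.18) were the nearest of the called genes to the typical gene, and both calls were lost without replicate 2 of nsRNA or replicate 1 of total RNA. The other mitochondrial gene with less new RNA, YNL073W, was not called without replicate 2 of nsRNA or of total RNA.

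**Figure D4:**
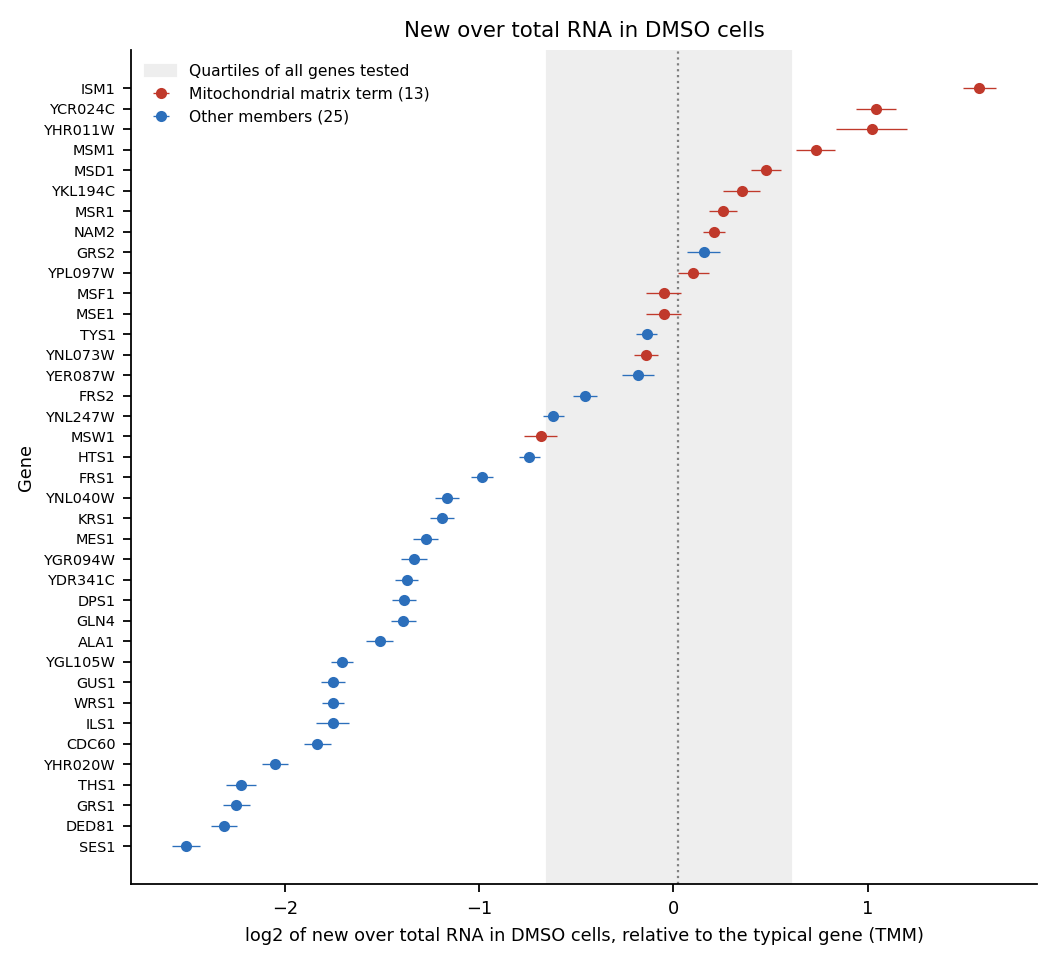
Log2 ratio of newly synthesized over total RNA in DMSO cells for each gene, relative to the typical gene by TMM scaling; points are fitted ratios from 2 libraries of each kind, bars are the log2 ratio divided by the square root of the F statistic, the grey band holds the middle quartiles of all genes tested and the dotted line is their median. SES1 is lowest at -2.51 and ISM1 highest at 1.57; all but 1 cytosolic gene lie left of zero and 9 of 13 mitochondrial genes lie right of it.

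Members whose products act together, or whose genes adjoin, were set side by side. The methionyl and glutamyl enzymes share the partner YGL105W. MES1 over GUS1 per kb in total RNA was 1.29 and 1.35 in auxin cells, against 1.19 and 1.25 in DMSO cells, and in nsRNA 1.33 and 1.41 in auxin cells, against 1.68 and 1.71 in DMSO cells. GUS1 over YGL105W in total RNA was 0.998 and 1.03 in auxin cells, against 0.910 and 0.919 in DMSO cells, and in nsRNA 1.08 and 1.05 in auxin cells, against 0.948 and 0.831 in DMSO cells. MES1 over YGL105W in total RNA was 1.29 and 1.40 in auxin cells, against 1.08 and 1.15 in DMSO cells, and in nsRNA 1.44 and 1.48 in auxin cells, against 1.60 and 1.42 in DMSO cells. These are ratios of RNA levels, and the groups overlapped only for MES1 over YGL105W in nsRNA. How often the ratios of other gene pairs separate was not counted, so these separations are not read as particular to the partners. DED81 and YHR020W lie next to each other on chromosome VIII, at 141894 to 143558 on the lower strand and 143996 to 146062 on the upper strand in the deposited coordinates (sacCer3 per the submitters' processing notes), with 437 bases between their starts. YHR020W over DED81 in nsRNA was 1.12 and 1.06 in auxin cells, against 1.09 and 1.05 in DMSO cells, which overlapped. In total RNA it was 0.789 and 0.849 in auxin cells, against 0.884 and 0.897 in DMSO cells.

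The genes that prepare tRNAs for these enzymes and carry them to the ribosome fell in nsRNA too, like nearly all genes. Of 18 such genes 18 of 18 were lower in nsRNA, where 97.6% of all tested genes were, with a median of -4.06 and TPT1, the tRNA 2'-phosphotransferase of splicing, lowest at -5.71. In total RNA 16 of 18 were lower, where 90.3% of all tested genes were, with a median of -2.07, near the -2.34 of all genes. Both counts lie near the shares of all genes and show nothing particular to these 18. The 2 that did not pass were TEF1 and TEF2, which encode elongation factor eEF1A, with log2 changes of -0.08 and -0.21. They are near-identical copies, so the split of reads between them is uncertain. The tRNA ligase gene TRL1 changed by -1.97 and CCA1, whose enzyme adds the terminal CCA, by -2.04 in total RNA.

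Genes of the Gcn4 pathway, which senses uncharged tRNA, fell in nsRNA in 13 of 13 cases, where 97.6% of all tested genes were lower, with a median of -3.67. GCN4 was lowest at -4.50 and GCD1, a subunit of the exchange factor eIF2B, highest at -3.03. In total RNA 12 of 13 were lower, where 90.3% of all tested genes were, with a median of -1.25. These counts too lie near the shares of all genes, but the total RNA median lay above the -2.34 of all genes. Relative to the typical gene, by TMM, 10 of 13 were higher in total RNA and 1 was lower. Of all tested genes 34.9% were higher and 38.1% lower on that scaling. GCN4 changed by -1.25 and GCN2, the sensor kinase, by -0.66 in total RNA, and GCN1, the activator of Gcn2, did not pass at -0.20.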

How the data were processed

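Total RNA and purified 4-thiouracil-labelled RNA were sequenced in 8 libraries, after S. pombe cells had been mixed in at 3 parts to 1 and ribosomal RNA had been depleted, per the labels' protocols; the kit marks strand. The build was sacCer3, with bcl2fastq 2.17.1.14, per the submitters' processing notes. The sources used here do not give the aligner or the counter. The deposited tables hold raw counts for each gene, per the file headers, and a normalized signal that the authors made by dividing the counts by 1 factor per library (1.44 and 1.45 in nsRNA of auxin cells, 0.669 and 0.720 in nsRNA of DMSO cells, 1.15 and 1.04 in total RNA of auxin cells, 0.881 and 0.951 in total RNA of DMSO cells). That these factors follow the S. pombe RNA is an assumption behind each change on the deposited scaling. The authors also deposited signal per kb, log2 fold changes and p-values, per the file headers.

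Counts were tested with edgeR 4.0.16 (R 4.3.3; quasi-likelihood, filterByExpr with a minimum count of 10, Benjamini-Hochberg over all genes), with library sizes from the deposited factors or, for relative changes, TMM, and with DESeq2 1.42.0 as an alternative. All 38 members passed the filter in every comparison. The SE given is the log2 change divided by the square root of F, not a fitted SE. The fits were tested on simulated data. Replicates differed by more than sampling noise (chi-square per degree of freedom 2.89 to 13.9). Values of every library are given for the extremes of each comparison among members with a mean of at least 100 scaled counts, the most abundant member of each class, members not called lower, and GRS1 with GRS2. The members and lists were chosen with earlier results of these data known. Alternatives were other scalings, filters, a replicate block, all libraries in 1 fit, each library left out and other compartment rules.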

Additional observations from a re-analysis of the deposited data

Results flagged for a closer look

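For 31 of the 38 genes the log2 change after auxin differed between nsRNA and total RNA, which is what brings them here. The test was the interaction test (edgeR, adjusted p under 0.05, deposited factors). Of all tested genes 77.7% had such a difference in the same direction, so the count of members lies near the share of all genes. Each value below is the log2 change in nsRNA minus that in total RNA. For the branched-chain and sulfur amino acids it was -3.43 in CDC60, -3.55 in ILS1, -3.38 in MES1, -3.67 in YGR094W and -3.48 in YNL247W. The enzymes for small and hydroxyl amino acids and proline had -3.40 in THS1, -3.59 in SES1, -3.57 in GRS1, -3.89 in ALA1 and -3.44 in YHR020W. Among charged and amide amino acids the difference was -3.68 in KRS1, -3.61 in YDR341C, -3.10 in HTS1, -2.97 in GUS1, -3.51 in GLN4, -2.81 in DPS1 and -3.58 in DED81. The aromatic amino acids had -2.58 in TYS1, -3.17 in WRS1, -3.19 in FRS1 and -2.98 in FRS2. The second glycyl gene, the prolyl-like gene and the other relatives had -1.48 in GRS2, -1.56 in YER087W, -2.61 in YNL040W and -3.08 in YGL105W.

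The mitochondrial genes with a called difference had -2.02 in ISM1, -1.64 in YNL073W, -1.48 in NAM2, -1.28 in MSF1, -1.26 in YKL194C and -1.15 in MSR1. The least negative of the 31 was that of MSR1. With TMM within each kind of RNA, the differences of GRS2, YER087W and all of these mitochondrial genes except ISM1 were positive; the values are given with the other scalings.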

How the results depend on the processing

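With DESeq2 on the deposited factors, all 8 libraries in 1 fit, another filter on low counts or any 1 library left out, all 38 members stayed lower in nsRNA and all 13 mitochondrial members stayed lower in total RNA, except that YHR011W was not tested in total RNA at a mean count of at least 50, which left 12. Other scalings turned the direction of many members. With TMM, 6 members were lower and 17 higher in nsRNA (median 0.21): 6 lower and 1 higher of the mitochondrial (median -0.26), 0 lower and 16 higher of the cytosolic (median 0.39). In total RNA 12 were lower and 23 higher (median 1.76), with a mitochondrial median of -1.20, and 1 lower and 23 higher of the cytosolic (median 1.97). With median-of-ratios factors, 6 were lower and 20 higher in nsRNA (median 0.23): 6 lower and 1 higher of the mitochondrial (median -0.23), 0 lower and 19 higher of the cytosolic (median 0.41). In total RNA 11 were lower and 23 higher (median 1.85), with a mitochondrial median of -1.10, and 0 lower and 23 higher of the cytosolic (median 2.07). Both scalings set the typical gene near 0 by construction.

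The log2 changes that became positive in nsRNA with TMM were DPS1 1.07, TYS1 1.01, GUS1 0.82, MSD1 0.69, CDC60 0.65, THS1 0.63, HTS1 0.62, FRS2 0.55, YGL105W 0.55, MES1 0.51, ILS1 0.48, GRS1 0.41, YHR020W 0.39, YNL247W 0.39, DED81 0.37, FRS1 0.32, YER087W 0.25, WRS1 0.24, YNL040W 0.22, YGR094W 0.19, YNL073W 0.18, SES1 0.18, YDR341C 0.17, GLN4 0.12 and ALA1 0.051. With median-of-ratios factors they were DPS1 1.10, TYS1 1.04, GUS1 0.84, MSD1 0.72, CDC60 0.68, THS1 0.66, HTS1 0.65, FRS2 0.58, YGL105W 0.58, MES1 0.53, ILS1 0.51, GRS1 0.44, YHR020W 0.42, YNL247W 0.41, DED81 0.39, FRS1 0.34, YER087W 0.27, WRS1 0.27, YNL040W 0.25, YGR094W 0.21, YNL073W 0.20, SES1 0.20, YDR341C 0.20, GLN4 0.15 and ALA1 0.076. In total RNA those with TMM were GRS1 2.18, DED81 2.16, ALA1 2.14, MES1 2.09, DPS1 2.08, YGR094W 2.06, YNL247W 2.06, YHR020W 2.04, YDR341C 1.98, GUS1 1.97, SES1 1.97, HTS1 1.92, GLN4 1.83, YGL105W 1.82, KRS1 1.79, TYS1 1.78, FRS2 1.73, FRS1 1.72, WRS1 1.60, YNL040W 1.02, ISM1 0.13, YER087W 0.012 and YNL073W 0.0081. With median-of-ratios factors they were GRS1 2.28, DED81 2.26, ALA1 2.24, MES1 2.18, DPS1 2.173, YGR094W 2.16, YNL247W 2.15, YHR020W 2.14, YDR341C 2.08, GUS1 2.07, SES1 2.06, HTS1 2.02, GLN4 1.93, YGL105W 1.92, KRS1 1.89, TYS1 1.88, FRS2 1.82, FRS1 1.82, WRS1 1.70, YNL040W 1.12, ISM1 0.23, YER087W 0.11 and YNL073W 0.10. The difference between nsRNA and total RNA with TMM within each kind of RNA was positive for MSD1 1.54, YCR024C 1.41, MSM1 1.41, YPL097W 1.26, MSW1 1.05, MSE1 0.97, MSR1 0.71, YHR011W 0.59, YKL194C 0.59, MSF1 0.57, GRS2 0.37, NAM2 0.37, YER087W 0.28 and YNL073W 0.22; its median was -1.12 over the members, -1.55 over the cytosolic and 0.71 over the mitochondrial ones, with 8 members higher, all 8 of them mitochondrial, and 0 mitochondrial ones lower.

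Relative to the typical gene in total RNA, YER087W and YNL073W lay at 0 within error: they were -0.090 and -0.094 with no filter and -0.0001 and -0.0042 with a mean count of at least 50. With no filter the medians there were 1.65 over the members and 1.87 over the cytosolic ones. DESeq2 with its own size factors, and edgeR with median-of-ratios factors, gave medians of 1.85 and 2.07 and 0 cytosolic members lower. Mitochondrial members with less new RNA than the typical gene in DMSO cells were 1 with no filter and 1 with DESeq2. The compartment median in total RNA was -3.11 for NAM2 alone and -3.42 with the matrix term.

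When 1 library was left out at a time, cytosolic members lower in total RNA numbered 3 in each case, against 6 with all libraries. Log2 changes in total RNA that crossed 0 were GRS1 (-0.23 to 0.13), MES1 (-0.31 to 0.022), DED81 (-0.19 to 0.067), ALA1 (-0.24 to 0.071), ILS1 (-0.15 to 0.18), THS1 (-0.17 to 0.18) and CDC60 (-0.10 to 0.21). Relative to the typical gene, the members lower in nsRNA numbered 3 to 5, all mitochondrial; the medians were 0.17 to 0.25 over the members and 0.28 to 0.46 over the cytosolic ones, and GRS2 (-0.14 to 0.054) and ALA1 (-0.018 to 0.12) crossed 0. In total RNA 0 cytosolic members were lower in each case, and YER087W (-0.026 to 0.024) and YNL073W (-0.097 to 0.075) crossed 0. For new over total RNA in DMSO cells the members' median was -0.94 to -0.79, 1 to 2 mitochondrial members were lower, and YPL097W (-0.059 to 0.25) crossed 0. The causes were not tested.

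The replicate numbers were not taken to pair the samples, although the labels number auxin and DMSO libraries alike. Deviations of same-numbered auxin and DMSO libraries correlated at -0.06 in nsRNA and 0.06 in total RNA. The labels also number nsRNA and total RNA alike, and those deviations correlated at 0.05 in auxin cells and 0.07 in DMSO cells. Such a correlation over all genes cannot exclude pairing. With treatment and number as a block, the difference between the changes was called negative for 4987 of all genes, against 4593 without it. With a replicate block, 32 members were lower in total RNA, 19 of them cytosolic, and 5176 of all genes, against 4946 without it. The counts of members called in the other comparisons stayed within 1.5 times. Depth limits YHR011W most, at 2 and 6 counts in total RNA of auxin cells, and the nsRNA libraries of auxin cells are the shallowest. Promoter motifs were planned and not run, since no sequence table of this yeast was at hand.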

Other observations

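By the adjusted p-values of the authors' deposited table, 38 members were lower and 0 higher in nsRNA, and in total RNA 22 were lower and 0 higher. KRS1, TYS1 and YGL105W were among these 22 but did not pass the edgeR test above. Over all genes, the authors' deposited table has 5682 lower in nsRNA and 4947 in total RNA. Over the 38 members, gene length and the log2 change in total RNA had a Spearman rho of 0.53. It was 0.62 over the 25 cytosolic and 0.65 over the 13 mitochondrial members. In nsRNA rho was 0.20 over the 38, -0.11 over the cytosolic and 0.52 over the mitochondrial members. These are descriptions across genes, which are not independent replicates and share the same libraries.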
